A study of Mus musculus with 48 samples.

Results

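*Enho*, the gene of the secreted peptide adropin, was followed in the liver of male mice with and without the PI3K catalytic subunit p110α in hepatocytes. It was read by every probe of the array that carries its name, which were 2 of the 30793 probes kept and 1 of the 20486 genes. The gene was selected on its values in all 8 groups of these mice, on its fasting differences and on its relation to lipogenic genes, so all its differences between groups are given as a description, with the interval of the fit and no test. The intervals do not allow for this selection and are not to be read as tests. Other genes were tested across the whole array.

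Each of the 48 one-colour arrays held the liver RNA of 1 mouse, with 6 mice in each of 8 groups. LKO mice (p110αhep-/-) were albumin-Cre+/- and p110αflox/flox, and LWT mice (p110αhep+/+) were floxed littermates without Cre, from matings of floxed mice with C57BL/6J albumin-Cre mice. The genotypes thus differ in Cre as well as in p110α. From 12 weeks of age, mice of both genotypes received the control diet D12450J (CTRL) or the high-fat diet D12492 with 60% of calories from fat (HFD) for 12 weeks. They were then fed ad libitum (FED) or fasted for 24 h (FASTED), and all were killed at ZT16, in the dark phase. The albumin promoter drives Cre in hepatocytes, and p110α in other liver cells was not measured here. In whole liver, fewer cells of a type and less RNA per cell cannot be told apart.

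Adropin is made mainly in liver and brain and circulates as a small peptide. It is known for effects on glucose and lipid metabolism, and its level has been linked to energy intake and to the biological clock. ROR nuclear receptors and their REV-ERB opponents, the liver X receptors and the oestrogen receptor have been reported to act on *Enho*. The receptor is not settled. GPR19 and contactin 6, a ligand of NOTCH1 also called NB-3, have been proposed as partners.

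Both *Enho* probes match the transcript NM_027147 and lie on chromosome 4 of mm9, on the minus strand, at chr4:41585245-41585304 and chr4:41585257-41585316. They share 48 of their 60 bases, so their agreement is no independent measurement. The end of the shared stretch, at chr4:41585257-41585286, is shown because both values rest on it. It is read 5′ to 3′ on the transcript strand, and the capitals mark the letters of the usual polyadenylation signal.
Enho shared stretch: cctcccactgtttgttgggtAATAAAtgga

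Both probes were well above background on 48 of 48 arrays. The raw signal of the brighter probe ranged from 693 to 23991.5, against a local background of 21.5 to 47. The other probe was lower by 0.39 to 0.67 on the log2 scale (median 0.53) and followed it across the 48 arrays with r = 0.999, and with r = 0.992 within LWT and 0.995 within LKO mice. The brighter probe is used below, and all its values are normalised log2 signals.

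The genotype divided all mice. The 24 LWT values ran from 9.66 to 11.79 with a median of 10.92, and the 24 LKO values ran from 11.87 to 14.68 with a median of 13.36. No LKO mouse was as low as any LWT mouse. Of the 20486 genes, 9 had all LKO values above all LWT values, which is 0.0439%, and 27 had all of them below.

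In fed mice on the CTRL diet, *Enho* was lowest at 9.66, had a median of 10.27 and reached 11.79 in LWT mice. It was lowest at 12.89, had a median of 13.34 and reached 13.88 in LKO mice of the same diet and state. The LWT group held 5 mice at or below 10.35 and a single mouse at 11.79, while the LKO group was compact.

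In fasted mice on the CTRL diet, the LWT values were 9.92 at the lowest, 10.64 at the median and 11.27 at the highest. The LKO values were 13.05, 13.34 and 13.94 in the same order. The raw signal had a median of 1100 in fed and 1560 in fasted LWT mice, and of 10000 and 10700 in fed and fasted LKO mice on this diet.

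In fed mice on HFD, the lowest, median and highest LWT values were 10.23, 11.04 and 11.73, and the LKO values were 12.34, 13.85 and 14.68. In fasted mice on HFD, they were 11.04, 11.31 and 11.54 in LWT mice and 11.87, 13.19 and 14.02 in LKO mice. The lowest fasted LKO mouse on HFD lay just above the highest fasted LWT mouse. The SD was 0.19 in fasted LWT mice on HFD (n = 6), but 0.81 in fed and 0.77 in fasted LKO mice on HFD (n = 6 each).

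By mean, the order was fed LKO on HFD (13.73 ± 0.81), fasted LKO on CTRL diet (13.39 ± 0.3), fed LKO on CTRL diet (13.35 ± 0.32), fasted LKO on HFD (13.16 ± 0.77), fasted LWT on HFD (11.26 ± 0.19), fed LWT on HFD (11.01 ± 0.5), fasted LWT on CTRL diet (10.56 ± 0.54) and fed LWT on CTRL diet (10.37 ± 0.75; SD, n = 6 each). Among neighbours in this order, only the step between the genotypes left no overlap.

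**Figure D1:**
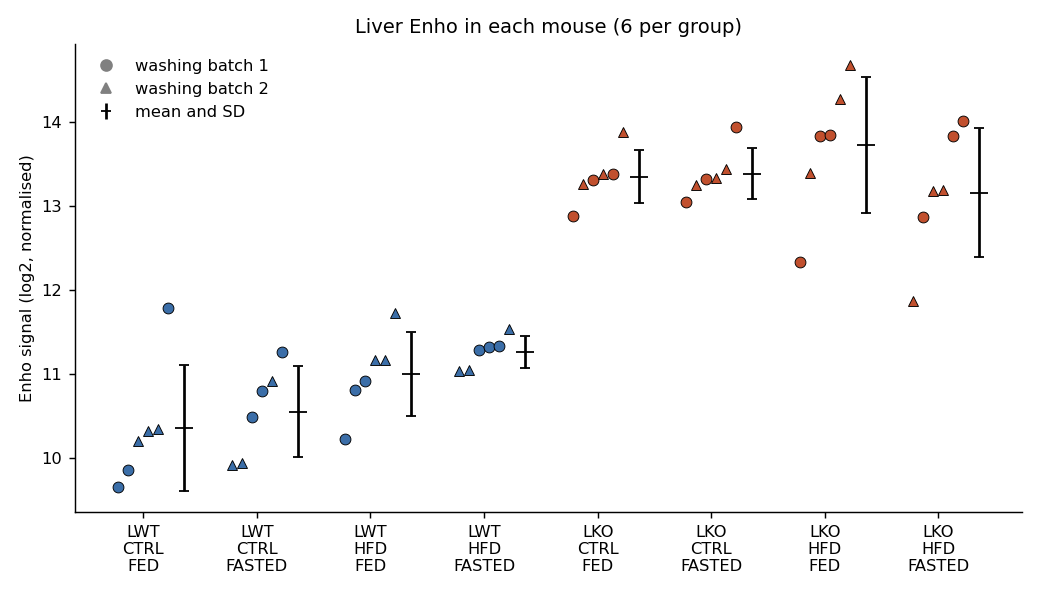
Normalised log2 signal of *Enho* (vertical axis) in each of 48 mice, by group; circles and triangles are the 2 washing batches, and the bars give the mean and SD of 6 mice. All LKO mice (11.87 and above) lie over all LWT mice (11.79 and below), and the fed LWT group on CTRL diet has 1 high mouse.

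Loss of p110α in hepatocytes went with a higher *Enho* signal in all 4 settings of diet and state, and the groups did not overlap in any. In fed mice on the CTRL diet, *Enho* was 8.39-fold higher in LKO mice (log2 difference 3.07, 95% interval 2.49 to 3.64), in a comparison that called 21.5% of genes. Without the LWT mouse at 11.79, the difference was 3.24.

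In fed mice on HFD, *Enho* was 6.31-fold higher in LKO mice (log2 difference 2.66, 95% interval 2.08 to 3.23), where 32.9% of genes were called. In fasted mice on the CTRL diet it was 6.76-fold higher (2.76, 2.2 to 3.31), where 24.8% were called. In fasted mice on HFD it was 3.9-fold higher (1.96, 1.37 to 2.56), where 36.8% were called.

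Each of the 6 slides held 1 array of every group, so the genotypes could be set side by side on a slide. *Enho* was higher in the LKO than in the LWT mouse in 24 of 24 such pairs, by 0.33 to 3.65 (median 2.88). All LKO values lay above all LWT values, so the sign of these differences was fixed and only their size is informative. The smallest of these differences came from a fasted pair on HFD, whose LKO mouse had the value 11.87. Without that mouse, the genotype difference in fasted mice on HFD was 2.27.

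The slides had been washed in 2 batches of 3. In fed mice on the CTRL diet, the genotype difference was 3.11 within the first batch and 3.2 within the second, and in fed mice on HFD it was 2.69 and 2.81. In fasted mice on the CTRL diet it was 2.5 and 2.97, and in fasted mice on HFD it was 2.31 and 1.47. The other *Enho* probe gave genotype differences of 3.08 and 2.67 in fed mice and of 2.77 and 1.95 in fasted mice, on CTRL diet and HFD.

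**Figure D2:**
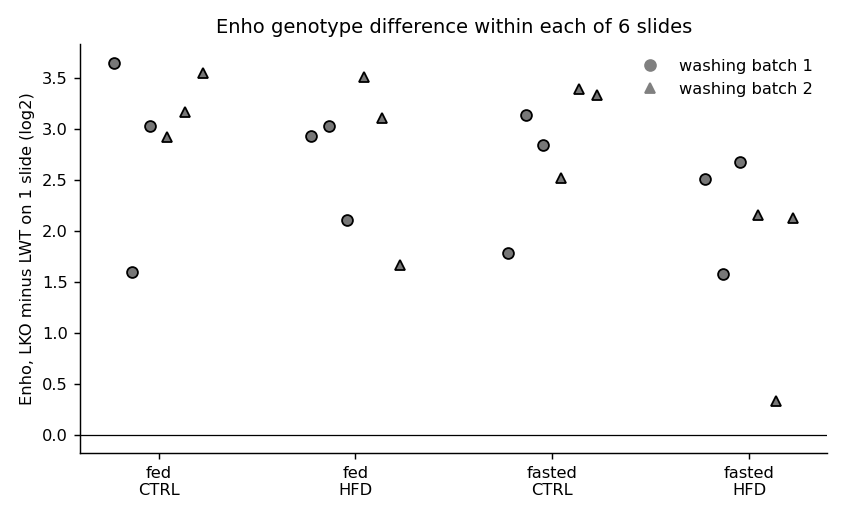
Difference in *Enho* between the LKO and the LWT mouse on the same slide (vertical axis, log2), for each diet and state; each point is 1 of 6 slides, and its shape gives the washing batch. The 24 differences run from 0.33 to 3.65, and their sign follows from the separation of the genotypes.

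The 4 differences of *Enho* between diets ran from -0.15 to 0.75, and the 4 between genotypes from 1.96 to 3.07. In fed LWT mice it was 1.69-fold higher on HFD than on CTRL diet (log2 difference 0.75, 95% interval 0.21 to 1.3), where 24.1% of genes were called, and the groups overlapped. Within the washing batches the difference was 0.57 and 1.06. Leaving out single arrays gave *Enho* differences from 0.6, without replicate 5 on CTRL diet, to 0.93, without the LWT mouse at 11.79.

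In fasted LWT mice, the difference between HFD and CTRL diet was 0.65 (95% interval 0.1 to 1.2), where 15.9% of genes were called. On all 6 slides the fasted LWT mouse on HFD was above the one on CTRL diet, by 0.06 to 1.59, and 5 of 6 fed pairs went the same way. In LKO mice, the difference was 0.34 when fed (-0.26 to 0.95, 12.2% of genes called) and -0.15 when fasted (-0.74 to 0.45, 10.8% called). Both moved with single mice and with the washing batch. Leaving out single arrays gave *Enho* differences from 0.13 to 0.59 in fed and from -0.36 to 0.15 in fasted LKO mice, with the highest values without the LKO mice on HFD at 12.34 and at 11.87. The batches gave 0.15 and 0.67 in fed and 0.29 and -0.72 in fasted LKO mice.

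The genotype difference was smaller on HFD by 0.41 in fed and by 0.8 in fasted mice. The interaction was -0.41 (95% interval -1.22 to 0.4, 2.83% of genes called) and -0.8 (-1.61 to 0.02, 4.96% called). With the other *Enho* probe, the fasted value was -0.82 (-1.61 to -0.03). Within the washing batches, the interaction was -0.41 and -0.39 in fed mice, and -0.19 and -1.51 in fasted mice. Without the fed LKO mouse on HFD at 12.34, the fed interaction was -0.16, and without the fasted one at 11.87, the fasted interaction was -0.49. For *Igfbp1*, the insulin-repressed IGF binding protein, the genotype difference in fed mice was 3.27 on the CTRL diet and -0.04 on HFD, and its interaction was -3.32 (limma adjusted p = 0.00227).

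**Figure D3:**
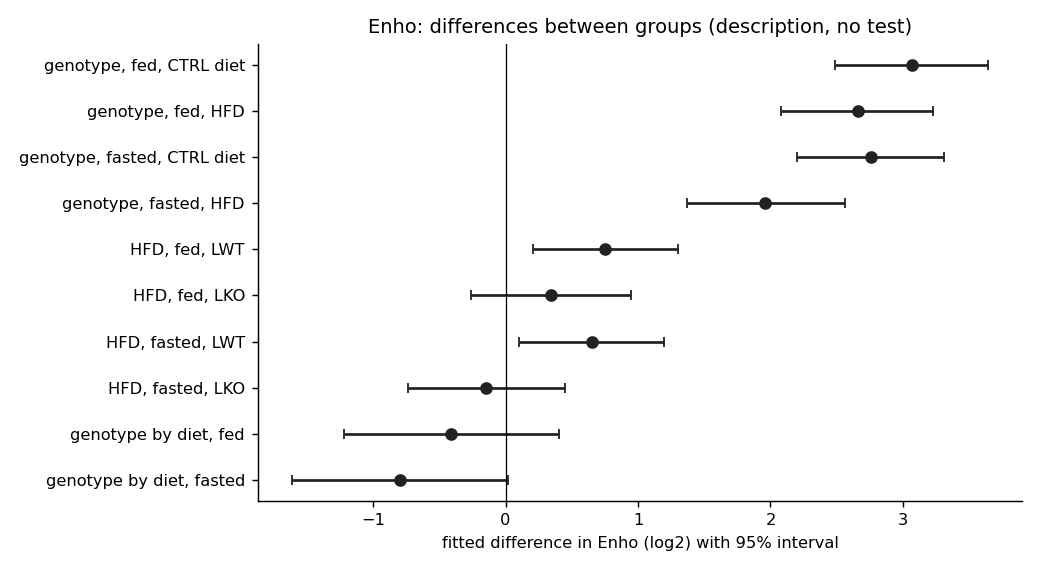
Fitted log2 difference in *Enho* (horizontal axis) with its 95% interval for 10 comparisons, given as a description. The 4 genotype differences, between 1.96 and 3.07, stand apart from the diet differences, between -0.15 and 0.75.

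Fed and fasted mice overlapped in *Enho* in all 4 settings of genotype and diet, and these values are given as a description. The mean of fasted minus fed mice was 0.19 in LWT and 0.04 in LKO mice on the CTRL diet, and 0.26 in LWT and -0.57 in LKO mice on HFD, each smaller than the larger SD of its groups. On the slides, the fasted mouse was the higher one in 3, 3, 4 and 1 of 6 pairs in the same order. In the same comparisons, 32.5%, 35.4%, 28.4% and 28.5% of genes were called.

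On HFD, these differences were unlike in the washing batches. The LKO value was 0.23 in the first and -1.36 in the second batch, and the LWT value was 0.66 and -0.15. The LKO difference on HFD also rested in part on single mice, with -0.3 without the fasted mouse at 11.87 and -0.86 without the fed mouse at 12.34. Without the LWT mouse at 11.79, the LWT difference on the CTRL diet was 0.49, and the batches gave 0.41 and -0.02 with it. In LKO mice on the CTRL diet they gave 0.24 and -0.16. The fasting difference of LKO mice minus that of LWT mice was -0.15 on the CTRL diet and -0.83 on HFD.

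Genes of fatty acid synthesis, which insulin and feeding raise in liver, were set beside *Enho*. Of 12 lipogenesis enzymes, 12 fell with fasting in LWT mice on the CTRL diet, 11 in LWT mice on HFD, 12 in LKO mice on the CTRL diet and 9 in LKO mice on HFD, and none rose, where 32.5%, 28.4%, 35.4% and 28.5% of all genes were called. *Fasn*, the fatty acid synthase, had log2 differences of -4.47, -4.14, -3.73 and -2.3 in these comparisons. With loss of p110α, 8 of the 12 enzymes fell and none rose in fed mice on the CTRL diet (median -0.79, against 0.02 over all genes), and 12 of 12 fell in fed mice on HFD (median -1.63, against 0.03), where 21.5% and 32.9% of all genes were called.

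In fasted mice, 4 enzymes fell and 1 rose on the CTRL diet (median -0.05), and 7 fell and none rose on HFD (median -0.66), where 24.8% and 36.8% of all genes were called. The genotype difference of *Fasn* was -0.73 in fed mice on the CTRL diet, -2.63 in fed mice on HFD, -0.79 in fasted mice on HFD and 0.02 in fasted mice on the CTRL diet, where that of *Enho* was 2.76. Among 10 regulators of lipogenesis and genes under them, 6 fell and 1 rose in each fed comparison, 2 fell and none rose in fasted mice on the CTRL diet, and 3 fell and 1 rose in fasted mice on HFD, and the counts in fasted mice were near the share of all genes called. *Pnpla3*, a lipase-related SREBP-1c target, had differences of -2.75 and -3.45, and *Cidec*, a lipid droplet protein, of -3.86 and -4.39, in fed LKO mice on CTRL diet and HFD. In fed LKO mice on HFD, *Pnpla3* was well above background in only 4 of 6 mice (mean 5.59), so its value of -3.45 is not exact.

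Since the genotypes form separate clusters, correlations with *Enho* are given within each, as descriptions over mice that share slides and batches. Across the 24 LWT mice, all 12 enzymes had a negative r with *Enho*, from -0.446 (*Scd1*, the stearoyl-CoA desaturase) to -0.112 (*Slc25a1*, the citrate carrier), with a median of -0.216. Across the 24 LKO mice, 3 of 12 were negative, and r ran from -0.311 (*Me1*, malic enzyme) to 0.283 (*Acly*, ATP citrate lyase). The 10 regulators were mixed. In LWT mice 6 of them were negative (-0.359 to 0.194, median -0.113), and in LKO mice 4 (-0.367 to 0.234, median 0.0836). Within the fed mice, 10 of 12 enzymes were negative in each genotype (median -0.354 in 12 LWT and -0.202 in 12 LKO mice), and 7 of 12 in LWT mice without the mouse at 11.79 (median -0.0303). Over all genes, 10585 of 20484 were negative in LWT and 9998 in LKO mice.

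The values were unlike in the washing batches. In LWT mice the median r of the enzymes was -0.458 in the first washing batch and -0.00025 in the second, and in LKO mice it was -0.127 and 0.298. With the group means removed, which leaves the differences between mice of a group, 9 of 12 enzymes were negative over the 48 arrays (-0.517 to 0.143), 7 of 12 in the first batch and 11 of 12 in the second. *Me1* was the most negative over the 48 arrays (-0.517).

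**Figure D4:**
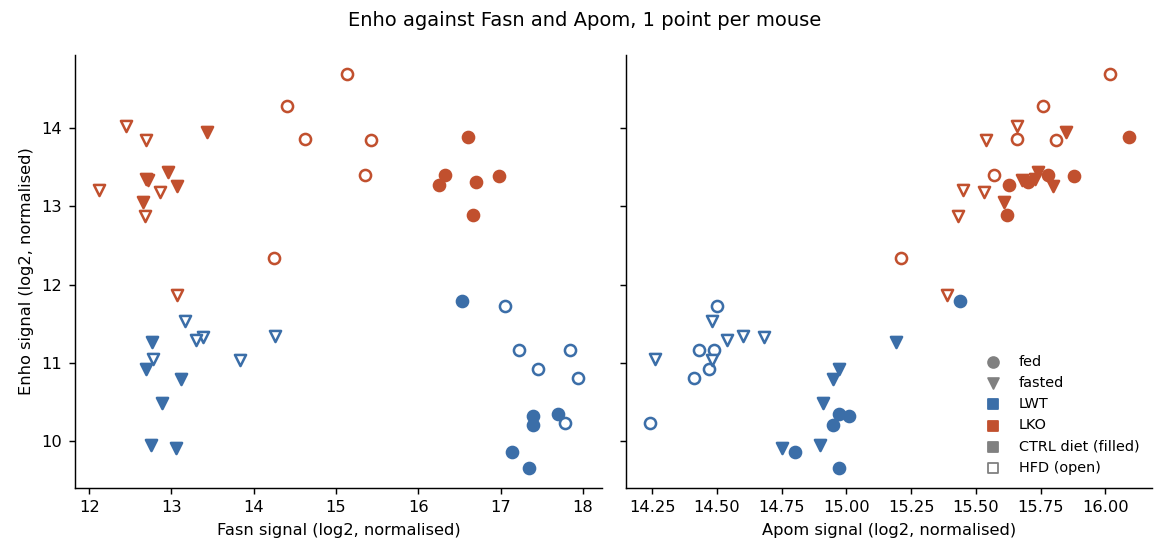
Normalised log2 signal of *Enho* (vertical axes) against *Fasn* (left) and *Apom* (right), 1 point per mouse; colour is the genotype, shape the state, and filled or open the diet. *Fasn* spreads the fed and fasted mice apart while *Enho* does not; *Apom* is lower in LWT mice on HFD, yet follows *Enho* inside the groups.

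*Enho* was set beside 13 measured genes of a list of 14 secreted liver proteins. With loss of p110α, 7 rose and 3 fell in fed mice on the CTRL diet (median 0.15), 6 rose and 5 fell in fed mice on HFD (0.03), 7 rose and 2 fell in fasted mice on the CTRL diet (0.07), and 5 rose and 2 fell in fasted mice on HFD (0.2). The medians over all genes were 0.02, 0.03, 0.01 and 0.03 in the same order, and 21.5%, 32.9%, 24.8% and 36.8% of all genes were called.

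*Igfbp2*, an IGF binding protein, rose in all 4 settings, by 2.21, 3.34, 1.68 and 3.06. *Fgl1*, a fibrinogen-like protein, rose by 1.28, 1.23, 1.15 and 0.63, and *Fetub*, the gene of fetuin-B, by 0.72, 0.88, 0.3 and 0.62. *Fst*, the activin-binding follistatin, rose by 1.01, 0.83 and 0.94 in the first 3 settings, and its difference in fasted mice on HFD was 0.41 (limma adjusted p = 0.0625).

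Other hepatokines went the other way. *Ctsd*, cathepsin D, fell in all 4 settings, with differences of -0.43, -0.51, -0.25 and -0.37. *Fgf21*, a fasting and stress hormone, fell in fed LKO mice on CTRL diet (-0.72) and HFD (-1.3) and rose in fasted LKO mice on the CTRL diet (0.8). *Lect2*, a liver-secreted chemotactic factor, had differences of -0.47 in fed mice on HFD and of -0.81 and -0.83 in fasted mice, all called. Of the hepatokines tested here, *Igfbp2*, *Fgl1* and *Fetub* were called higher in all 4 settings.

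**Figure D5:**
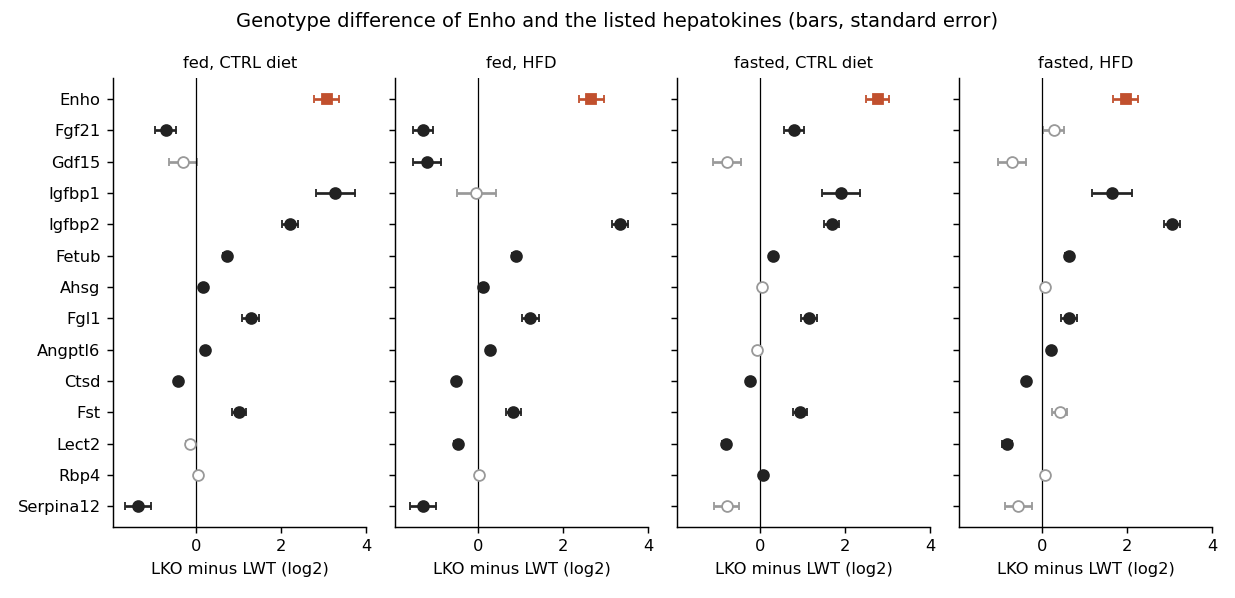
Fitted log2 difference between LKO and LWT mice (horizontal axes) with its standard error for *Enho* and 13 hepatokines in 4 settings; filled black marks an adjusted p of at most 0.05 of a hepatokine, and *Enho*, as orange squares, has no test. *Enho* (1.96 to 3.07) and *Igfbp2* (1.68 to 3.34) are high in all 4, and *Igfbp1* is at -0.04 in fed mice on HFD.

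Of 12 FOXO and gluconeogenesis targets, 5, 4, 7 and 7 rose and none fell with loss of p110α in the same 4 settings, where 21.5%, 32.9%, 24.8% and 36.8% of all genes were called in either direction. The count in fed mice on HFD was near that share. *Irs2*, the insulin receptor substrate, rose by 1.92, 1.49, 0.87 and 0.91. *Pck1*, a gluconeogenic enzyme, rose by 1.43 and 0.79 in fed mice, with uncalled differences of 0.02 and 0.32 in fasted mice. With fasting, 9, 7, 9 and 6 of these genes rose and 0, 1, 1 and 1 fell in LWT mice on CTRL diet and HFD and LKO mice on CTRL diet and HFD, where 32.5%, 28.4%, 35.4% and 28.5% of all genes were called. *G6pc*, the glucose-6-phosphatase of gluconeogenesis, fell on HFD in LWT (-1.35) and LKO mice (-1), and *Sesn1*, a stress-response gene, fell in LKO mice on the CTRL diet (-0.19).

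Of 14 PPARα targets, which fasting switches on, 13, 6, 14 and 8 rose and 0, 1, 0 and 1 fell in those fasting comparisons. In the same order, 32.5%, 28.4%, 35.4% and 28.5% of all genes were called with fasting. With loss of p110α, 1 rose and 7 fell in fed mice on the CTRL diet, 2 rose and 5 fell in fed mice on HFD, 4 rose and none fell in fasted mice on the CTRL diet, and 2 rose and 3 fell in fasted mice on HFD. With 21.5%, 32.9%, 24.8% and 36.8% of all genes called, the counts in fasted mice were near that share.

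Genes of the reported regulators of *Enho* were set beside it. Of 7 measured, 2, 1, 2 and 4 rose with loss of p110α. With 21.5%, 32.9%, 24.8% and 36.8% of all genes called in the same settings, these counts do not set the list apart. *Esr1*, the oestrogen receptor α, rose by 0.7 in fed and by 0.7 in fasted mice on the CTRL diet and by 0.89 in fasted mice on HFD. *Nr1h2*, the gene of LXRβ, rose by 0.23, 0.14, 0.27 and 0.22.

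*Rora*, an ROR receptor, was called in fasted mice on HFD (0.23). *Nr1d1*, the gene of REV-ERBα, was called in no genotype comparison, with differences between -0.09 and 0.32. *Nr1d2*, the gene of REV-ERBβ, rose in fasted mice on HFD (0.52, limma adjusted p = 0.000664) and had uncalled differences of 0.14 to 0.19 in the other settings. Of 12 core clock genes, none passed in fed mice on the CTRL diet, 1 rose in fed mice on HFD, 1 fell in fasted mice on the CTRL diet and 3 rose in fasted mice on HFD, none of these above the share of all genes called (21.5%, 32.9%, 24.8% and 36.8%). All mice were killed at 1 time of day, so the rhythm of *Enho* was not measured.

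Of the proposed partners, *Gpr19* had differences between -0.26 and 0 and was called lower in fed mice on HFD (-0.26, limma adjusted p = 0.0216). *Cntn6* was called in none of the genotype comparisons, with differences from 0.08 to 0.12. *Notch1* rose by 0.4 and 0.54 in fed LKO mice on CTRL diet and HFD.

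Over the 48 arrays, the genes with the highest r with *Enho* were *Itih2* (0.888), *Serpinf2* (0.881), *Nkd2* (0.875), *Aph1c* (0.866), the transcript ENSMUST00000162314 (0.863), *Ang* (0.861), *Gm32643* (0.858), *Ang4* (0.857), *Dnajc12* (0.856) and *Pdia5* (0.853). *Itih2* encodes an inter-α-trypsin inhibitor heavy chain and *Serpinf2* α2-antiplasmin, both secreted by hepatocytes. Over 48 arrays of both genotypes, r includes the step between them. Within LWT mice alone, r was 0.288 for *Itih2* and 0.412 for *Serpinf2*, and within LKO mice it was 0.654 and 0.843. *Ang*, *Ang4* and that transcript are close relatives in sequence, and their probes may share signal.

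The lowest r were those of *Snhg11* (-0.943), *Dct* (-0.9), *Anxa8* (-0.899), *Wfdc2* (-0.896) and *Gm3367* (-0.88). *Snhg11*, a non-coding host gene of small nucleolar RNA, had genotype differences of -2.45, -2.63, -2.49 and -2.1, and its r was -0.504 within LWT and -0.7 within LKO mice. Within LWT and LKO mice, r was -0.226 and -0.355 for *Dct* and -0.21 and -0.356 for *Anxa8*. It was 0.128 and -0.738 for *Wfdc2*, and -0.442 and -0.634 for *Gm3367*. The r over both genotypes thus includes the step between them here as well.

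Between mice of the same group, with the group means removed, the highest r were those of *Apom* (0.83), *Pdia5* (0.786), *C8b* (0.763), *C8a* (0.762) and *Tpst1* (0.759). *Apom* encodes apolipoprotein M of HDL, *C8a* and *C8b* chains of complement component C8, *Pdia5* a protein disulfide isomerase and *Tpst1* a protein tyrosine sulfotransferase. These genes were picked by this r over the same arrays. High values within parts of the arrays were therefore likely from the start and are no independent support. With that limit, *Apom* was at 0.827 in LWT and 0.833 in LKO mice, and *Pdia5* at 0.865 and 0.719. In the first and second washing batch, the values were 0.903 and 0.711 for *Apom* and 0.873 and 0.57 for *Tpst1*. They were 0.761 and 0.827 for *Pdia5*, 0.749 and 0.82 for *C8b*, and 0.756 and 0.797 for *C8a*. Without the 2 mice farthest from their group in *Enho*, the values ran from 0.668 (*Tpst1*) to 0.782 (*Pdia5*).

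The genotype differences of *Apom* were 0.77, 1.22, 0.78 and 1.01. It was lower on HFD in LWT mice, with differences of -0.56 when fed and -0.45 when fasted, where the *Enho* differences were 0.75 and 0.65. Its r over all 24 LWT mice was -0.162.

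The nearest measured genes beside *Enho* in the RefSeq order (GRCm38) were *Dnaic1*, *Fam219a* and *1110017D15Rik* on one side and *Cntfr*, *Rpp25l* and *Dctn3* on the other. *Fam219a* rose with loss of p110α by 0.84, 0.81 and 0.82 in fed mice on CTRL diet, fed mice on HFD and fasted mice on HFD, with a difference of 0.23 in fasted mice on the CTRL diet. *Dnaic1* rose (0.55) and *Dctn3* fell (-0.32) in fed mice on HFD. *1110017D15Rik*, *Cntfr* and *Rpp25l* were called in no genotype comparison, with differences from -0.12 to 0.34.

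Defining hepatocyte genes such as *Alb* and *Ttr* were among the brightest on the arrays. Quantile normalization fixes the brightest probes, so their level says nothing of hepatocyte content. In fed LKO mice on HFD, for example, *Alb* was 18.89 in all 6 mice. Of 6 hepatocyte markers, 1, 0, 1 and 0 rose and 1 fell in each setting, where 21.5%, 32.9%, 24.8% and 36.8% of all genes were called. Markers of other cells differed between the genotypes. Of 5 bile duct markers, 3 fell in fed mice on the CTRL diet and 4 in each other setting, and their sum ran from 1450 to 5400 in LWT and from 559 to 1130 in LKO mice. Among them was *Spp1*, osteopontin, with differences from -2.63 to -1.75, while *Epcam* was well above background in 1 of 24 LKO mice.

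Of 3 adipocyte markers, *Cfd*, the adipokine adipsin, had differences from -5.56 to -4.11, and the sum of the list ran from 594 to 37200 in LWT and from 203 to 2160 in LKO mice. In fed LKO mice on the CTRL diet, *Cfd* was well above background in only 3 of 6 mice (mean 5.81), so its difference there is not exact. *Lep*, the gene of leptin, went the other way in fed mice on HFD, where it was higher in LKO mice (0.55, limma adjusted p = 0.0011), and had uncalled differences of -0.04 to 0.01 in the other settings. *Plin1*, which marks fat droplets of adipocytes, had means of 5.49 to 5.73 in the 8 groups. The sum of the list in LWT mice thus rested mainly on *Cfd*. In fasted LWT mice on HFD, the means were 13.83 for *Cfd*, 7.23 for *Lep* and 5.51 for *Plin1*. Of 5 endothelial markers, 1, 1, 2 and 4 rose and 1, 1, 0 and 0 fell, with sums of 10800 to 18000 in LWT and 15300 to 19600 in LKO mice. Of 6 Kupffer cell, 5 stellate cell and 4 lymphocyte markers, at most 1 of each list rose and at most 1 fell in each of the 4 settings. These counts of markers stand against the same shares of all genes called, 21.5%, 32.9%, 24.8% and 36.8%. The part of these cells in the *Enho* difference was not tested.

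The 2 washing batches and 6 slides held all groups. Between 52.3% and 59.3% of spots were well above background, and no spot was saturated. The *Pik3ca* probe was not lower in LKO mice (differences of 0.08 to 0.58). On HFD it was called higher in fed (0.58, limma adjusted p = 2.99e-07) and fasted LKO mice (0.25, limma adjusted p = 0.0172). The higher signal was not confined to HFD. In fed mice on the CTRL diet, its mean was 13.23 in LKO and 12.89 in LWT mice (SD 0.11 in each). The probe thus did not show the recombination, and the genotypes were taken as labelled. Over all genes, 46 of the 48 arrays were nearest to the mean of their own group. The exceptions were the fed LWT mouse on CTRL diet with *Enho* at 11.79 and a fed LKO mouse on HFD with *Enho* at 14.28, and both were nearest to fed LKO mice on CTRL diet.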

How the data were processed

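The members and gene lists were chosen with earlier results of these data known. The authors labelled 200 ng of liver RNA with cyanine 3 and scanned the arrays with Agilent Feature Extraction 10.10.1.1. The deposited scanner files hold the intensity of each spot and its local background, not normalized, and other flags set by that software. The authors also deposited a table of log2 values, corrected for washing batch and quantile normalized, which served as an alternative.

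Here, control spots were left out, outlier spots, 92 to 151 on an array, were dropped, and log2 median signals were averaged per probe. The filter retained 30793 of 56605 probes, those detected over background in 5 or more of the 6 mice of any group. The washing batch was removed with group means protected, and arrays were quantile normalized, which can hide shifts shared by all genes. One limma 3.58.1 model (statmod 1.5.0, R 4.3.3) with array weights held the 48 arrays. Adjustment was by Benjamini-Hochberg across the probes retained, and a gene was called at an adjusted p of at most 0.05, by its brightest probe. "Rose" and "fell" are used for called genes, and values listed for 4 settings follow the order fed CTRL, fed HFD, fasted CTRL, fasted HFD. No difference or correlation of *Enho* is reported with a test, since its values in all 8 groups were part of the choice. Tests of its genotype and diet differences had been planned and are left out. Named genes were *Enho*, members of the lists, the 10 highest and 5 lowest r over 48 arrays, the 5 highest r with group means removed, and 3 measured neighbours on each side. P values set a difference against the spread between mice within groups, estimated over the 48 arrays together. The alternatives were other background corrections, normalizations and filters, the washing batch, slide or replicate number, array weights, fewer arrays and the log2 table. The same-numbered replicates were not taken as pairs, since the correlation of their deviations from the group means ran from -0.351 to 0.322 over 72 pairs and passed 0.1 in 13. The fit was tested on simulated data. The number of arrays limits the precision. Of 119 listed genes 113 were measured, and for 1 of these no result is reported here.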

Additional observations from a re-analysis of the deposited data

Results flagged for a closer look

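In fed LWT mice on CTRL diet, replicate 2 stood far above the other 5 mice with both *Enho* probes. The brighter probe read 11.79, where the next mouse had 10.35, and the other probe read 11.23, where the next had 9.84. The gap was 0.677 and 0.681 of the range of the group. Chance flags about 1 in 20 groups of this size, and the 2 probes share most of their sequence. In the same mouse *Igfbp1* was 13.93, the highest of the group, *Cidec* 10.31 and *Pnpla3* 8.12, the lowest, while *Dct* (11.43) lay among the other mice of the group and *Wfdc2* (11.67) below their lowest value of 12.23. In fed LKO mice on CTRL diet, *Dct* reached 8.6 and *Wfdc2* 9.94. Over all genes, its mean squared distance was 0.0735 to the fed LKO mice on CTRL diet and 0.0864 to the rest of its own group. The cause was not tested.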

How the results depend on the processing

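The 4 genotype differences of *Enho* kept their direction in all 17 alternatives and without each of the 48 arrays in turn (2.91 to 3.24 and 2.44 to 2.9 in fed mice, 2.65 to 2.91 and 1.75 to 2.27 in fasted mice, on CTRL diet and HFD). The HFD difference in fed LWT mice, 0.75, was 0.69 with no filter on dim probes, 0.74 without correction of the washing batch, 0.64 with no array weights, 0.57 within washing batch 1 and 1.06 within batch 2. With the replicate number as a block it was 0.74, and the replicate block turned no direction of *Enho*. Leaving out single arrays gave 0.6 to 0.93. In fasted LWT mice, the HFD difference was 0.67 with the fasted arrays alone. In fasted LKO mice it ranged from -0.72, within washing batch 2, to 0.29, within batch 1, where it changed sign, as it did without LKO replicate 3 on HFD (0.15), over a range of -0.36 to 0.15 without single arrays. In fed LKO mice it ranged from 0.15 to 0.67 over the alternatives, and from 0.13 to 0.59 without single arrays. The fasting differences on HFD moved between washing batches 1 and 2, from 0.23 to -1.36 in LKO and from 0.66 to -0.15 in LWT mice. The cause was not tested. All 14 counts of called genes were over 1.5 times lower within at least 1 washing batch, which holds fewer arrays. The genotype by diet interaction in fed mice called 580 genes, but 206 with no filter, 257 without batch correction, 365 with the replicate block and 253 without array weights. In fasted mice it called 1017, but 447 with no filter and 594 without array weights. Requiring a fold over 1.5 as well left 663 to 1339 genes in the genotype, 387 to 770 in the HFD and 275 and 379 in the interaction comparisons. Without the filter, the HFD comparison in fasted LWT mice called 2155 genes and not 3263. Of the other named genes, 4572 values over the alternatives kept their call, 338 lost it, and no called value changed sign.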
